A study of Homo sapiens with 9 samples.

Results

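The ZNF zinc finger genes are genes whose symbol begins with ZNF followed by a digit. The deposited table holds 261 of them among 6819 genes (3.83%), as 935 listed transcripts whose estimated read counts were added up per gene number. Enough counts for testing were found for 257, which passed the filter on low counts together with 6398 genes in all. The other 4 were ZNF581, ZNF350, ZNF774 and ZNF217, each above 0 counts in at most 4 libraries. RNA was sequenced from Caki-1, a human cell line derived from a metastasis of clear cell renal carcinoma, in 3 control libraries (genotype WT) and in 6 libraries in which a short hairpin RNA knocks down TAF1D, 3 of them from cells called SH1 and 3 from cells called SH3. The study asks what TAF1D, a subunit of the SL1 factor that recruits RNA polymerase I to ribosomal RNA genes, does in this cancer. The meaning of SH1 and SH3, their target sequences, and whether libraries of a group came from separate cultures are not given in the labels, so p-values measure only the spread between these libraries, which may be technical.

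Most ZNF genes encode proteins with tandem C2H2 zinc fingers, small folds held by a zinc ion that each read a few bases of DNA. Many carry a KRAB domain, which recruits the scaffold TRIM28 (KAP1) and with it the histone methyltransferase SETDB1, heterochromatin protein 1 and deacetylases, so that the bound locus is silenced. The KRAB family grew by tandem duplication, is clustered on chromosome 19 and is known for holding transposable elements silent. Other members activate promoters, bind RNA or carry a different zinc-binding fold. These transcripts are usually of low abundance, and reads of close paralogs can be split between genes by the counting.

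The table is a selection. Each of its transcripts differs at least 2-fold between control 1 and SH1 1, so transcript values differ more in this pair than in other pairs of libraries. A gene's sum covers its listed transcripts only. Of the summed ZNF genes, 38.7% differed at least 2-fold in this pair, within the 29.8% to 48.4% of the other pairs. Listed counts added up to 1358215 to 1596467 per library, of which ZNF genes took 2.14% to 2.49%. Neither TAF1D, which would check the knockdown, nor TRIM28 was analysed here. Of 11 markers of clear cell carcinoma and renal tubule, PAX8 and CDH6 were listed. CDH6, a renal cadherin, had 0.917 ± 0.152 FPKM in controls, 0.303 ± 0.0643 in SH1 and 0.103 ± 0.0115 in SH3, and was called as lower on average (log2 fold change -2.41 ± 0.36, adjusted p = 0.0246, edgeR, background 1.11%). PAX8, a renal transcription factor, had 2.26 ± 0.82, 5.42 ± 1.13 and 5.3 ± 4.05 FPKM and was not called (1.11 ± 0.48 on average, adjusted p = 0.495, edgeR). Their part in the values of the ZNF genes was not tested. Of the markers of other cell types, CD68 was listed, at group means of 10.8 to 15.3 FPKM, and PTPRC and those of endothelium and fibroblasts were not analysed here.

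Gene numbers matched RefSeq for all 261 genes (ZNF720 is named KRABD5 there), and the RefSeq promoter table (GRCh38.p14) holds 228 of them with 321 start sites. Of these genes, 106 lie on chromosome 19. These promoters run from 250 bases before to 50 after the start. Both strands were searched for the pattern of 6 letters, any base (N) and 6 letters found in the largest number of them. It was ACTACANTTCCCA, in 30 of the 321 (9.35%, 28 genes), ahead of the next pattern in 19. It was found in 1.15% of the promoters of all genes in the table and in 0.669% of all 35116 promoters. It contains the shorter motif ACTACA, which was in 20.9%, 8.26% and 8.46% of these promoters, and resembles the known site of the activator ZNF143. The motif was chosen on these promoters, and neighbouring duplicates and alternative starts share sequence, so the shares are a description. The 200 bases upstream of the start follow for 4 genes that carry the motif and whose RNA is described later, ZNF224 (chr19:44094161-44094360, plus strand), ZNF782 (chr9:96854515-96854714, minus strand), ZNF189 (chr9:101398651-101398850, plus strand) and ZNF32 (chr10:43648882-43649081, minus strand). Each is written 5′ to 3′ in the direction of the gene, with the motif, on whichever strand it was found, in capitals.
ZNF224: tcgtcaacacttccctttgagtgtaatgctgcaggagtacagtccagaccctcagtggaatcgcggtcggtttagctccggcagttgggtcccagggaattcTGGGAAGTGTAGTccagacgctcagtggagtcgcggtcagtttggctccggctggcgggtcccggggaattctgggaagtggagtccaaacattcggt
ZNF782: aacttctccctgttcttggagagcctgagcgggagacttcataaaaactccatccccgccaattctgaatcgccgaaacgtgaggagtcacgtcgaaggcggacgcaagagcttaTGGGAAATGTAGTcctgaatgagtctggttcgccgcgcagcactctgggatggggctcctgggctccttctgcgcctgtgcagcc
ZNF189: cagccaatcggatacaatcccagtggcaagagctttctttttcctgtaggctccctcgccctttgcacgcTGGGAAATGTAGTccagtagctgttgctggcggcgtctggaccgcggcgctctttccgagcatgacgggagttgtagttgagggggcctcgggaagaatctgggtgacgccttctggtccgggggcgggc
ZNF32: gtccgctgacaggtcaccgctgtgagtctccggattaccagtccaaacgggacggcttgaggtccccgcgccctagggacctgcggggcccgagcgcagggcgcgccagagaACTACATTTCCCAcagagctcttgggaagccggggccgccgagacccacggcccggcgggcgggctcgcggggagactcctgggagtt
The motif lies 98 to 86 bases before the start in ZNF224, 85 to 73 bases before it in ZNF782, 130 to 118 in ZNF189 and 88 to 76 in ZNF32. Counted from another RefSeq start of ZNF32, the same motif lies 170 to 158 bases before. In ZNF32 it reads in the direction of the gene and in the other three against it.

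Other motifs were searched on both strands in the same windows. CCGGAAG, the core read by ETS factors, was found in 36.8% of ZNF promoters, against 15.9% of promoters of the table's genes and 10.3% of all promoters. The TATA box TATAAA was found in 4.98%, 6.19% and 11.5% of these sets, and the GC box GGGCGG in 59.2%, 64.3% and 45%. The E-box CACGTG was found in 4.98%, 8.78% and 7.26%, and the CRE element TGACGTCA in 3.43%, 2.55% and 1.85%. Median GC content was 61.3% in ZNF promoters, 64.7% in those of the table's genes and 58.7% overall.

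ZNF genes were expressed at low levels. Their median over the 9 libraries was 0.929 FPKM (fragments scaled to transcript length and library size, summed over a gene's listed transcripts), against 1.34 for all genes of the table. In all, 124 of the 261 had a mean above 1 FPKM and 13 above 5. Mean counts had a median of 74.9, against 88.1 for all genes, and 101 ZNF genes (38.7%) reached 100 counts, against 46.8% of all genes. Between 22 and 47 ZNF genes had 0 counts in a given library. In all 9 libraries 163 were above 0 (62.5%), a larger share than the 58.3% of all genes. Added over the family, levels were 404 ± 35 FPKM in controls, 427 ± 24.3 in SH1 and 412 ± 4.69 in SH3 (SD, n = 3 each), ranges that overlap. A lower level in such bulk RNA can come from fewer cells or from less RNA per cell, which cannot be told apart.

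The 8 most abundant genes held 19.1% of the family's FPKM. ZNF185, an actin-associated LIM-domain protein and so no C2H2 factor, was highest with 14.2, 19 and 17.8 FPKM in controls, 15.4, 17.7 and 23.9 in SH1 and 12, 16.2 and 19.4 in SH3. ZNF655 followed with a mean of 11.4 FPKM and 8.39 to 14 over the libraries. The ranges of ZNF185 and ZNF655 overlap, so their order does not hold between all libraries. ZNF358 had a mean of 9.87 FPKM (7.34 to 14.2) and ZNF692, which encodes a factor described as an AICAR response element binding protein, 8.77 (6.05 to 10.5). ZNF384, a factor rearranged in acute leukaemias, had 8.71 (6.66 to 11.4) and ZNF263, a KRAB and SCAN domain factor, 8.12 (5.73 to 10.1). ZNF195 had 7.48 (5.89 to 9.64) and ZNF32 7.38 (3.55 to 12.1). Each of these genes overlapped with its neighbours in this order across libraries.

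**Figure D1:**
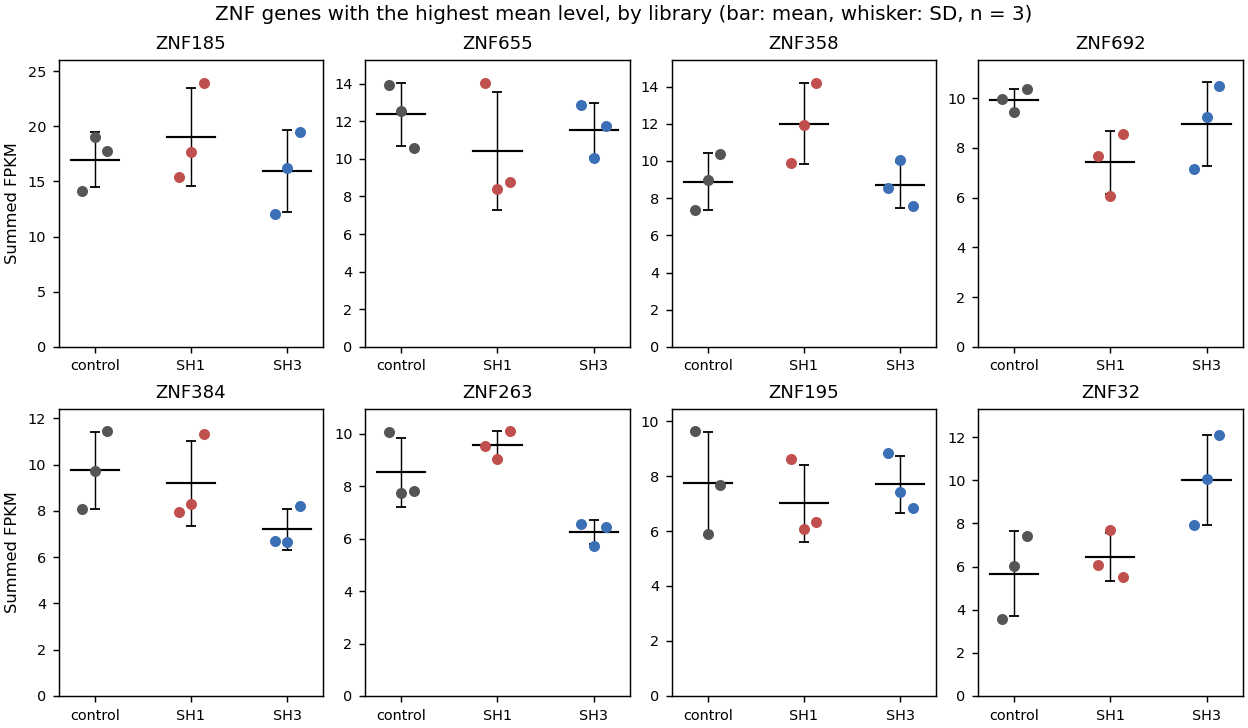
Summed FPKM (vertical axis) of the 8 ZNF genes with the highest mean level in each control, SH1 and SH3 library (points), with the group mean (bar) and SD (whisker, n = 3). ZNF185 lies between 12 and 23.9 FPKM with overlapping groups, whereas the 3 SH3 libraries of ZNF263 (5.73 to 6.57) lie below its other 6.

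In SH1 against control, no ZNF gene rose and 2 fell of 257 tested, ZNF224 and ZNF782 (edgeR quasi-likelihood test, p adjusted by Benjamini-Hochberg over all 6398 genes, threshold 0.05). The background was 2.14% of all genes past this threshold, 1.06% higher and 1.08% lower. The median log2 fold change of the family was -0.03, the same as over all genes, and its quartiles ran from -0.41 to 0.35, against -0.6 to 0.56 for all genes. Before adjustment, 10 ZNF genes (3.89%) had a p under 0.05, against 11.5% of all genes. DESeq2 called 3 (ZNF836 as higher, ZNF224 and ZNF782 as lower, background 7.19%). Standard errors (SE) of the log2 fold changes had a median of 0.71 in the family and 0.76 in all genes. Among genes with at least 100 counts on average, 0 of 101 ZNF genes passed the adjusted threshold and 3.96% had an unadjusted p under 0.05, against 3.92% and 16.8% of all such genes.

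ZNF224, a KRAB zinc finger repressor known from the aldolase A promoter, was listed with 1 transcript (NM_001321645) of the 2 RefSeq mRNAs of the gene. Its estimated counts were 29.9, 147 and 82.3 in controls 1 to 3, 0 in each SH1 library, and 155, 41 and 71.1 in SH3. With 3 counts over the SH1 group as the floor, it was at least 97.2-fold lower in SH1 than in control (adjusted p = 0.0306, edgeR). ZNF782, also a C2H2 zinc finger gene, was listed with 1 transcript (NM_001346991) of 14 RefSeq mRNAs. Its counts were 31.9, 47.3 and 51.6 in controls, 0 in each SH1 library, and 68.5, 42.9 and 30.6 in SH3, at least 49.1-fold lower in SH1 than in control (adjusted p = 0.0225, edgeR). Listed transcripts were often at 0 throughout a group. Of the 935 ZNF transcripts, 89 were at 0 in every SH1 library, 87 in every control and 117 in every SH3 library. The share over all transcripts was not counted. For ZNF224 and ZNF782 every control and SH3 library lay above every SH1 library, and the other transcripts of these genes were not analysed here. In the other 7 libraries neither passed the threshold (adjusted p = 0.0691 for ZNF224 and 0.0723 for ZNF782, edgeR, background 0.895%), while SH1 2 and SH1 3 stayed at 0. Leaving out any library but control 1 also ended the call of ZNF224, and any but control 1 and SH1 3 that of ZNF782, with adjusted p up to 0.0939 and 0.0896 (edgeR).

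Counts of ZNF genes with the smallest p in SH1 that did not pass the threshold are given as values. ZNF808, a KRAB gene needed for pancreas development in humans, had 64.4, 53.9 and 23.8 counts in controls and 129, 95.7 and 119 in SH1 (log2 fold change 1.11 ± 0.45 SE, adjusted p = 0.407, edgeR). ZNF431 had 96.3, 85.2 and 98.8 in controls and 213, 117 and 203 in SH1 (0.75 ± 0.31, adjusted p = 0.407). In both, all SH1 libraries were above all controls. ZNF160 (0.52 ± 0.29) and ZNF319 (0.40 ± 0.24) had adjusted p of 0.614 and 0.662 in edgeR. On the lower side, ZNF620 had 52.9, 88.5 and 66.8 counts in controls and 18.6, 34 and 27.1 in SH1 (-1.56 ± 0.62, adjusted p = 0.389). ZNF692 had 375, 366 and 371 in controls and 284, 227 and 325 in SH1 (-0.59 ± 0.22, adjusted p = 0.369, edgeR). Neither overlapped between these groups. Without overlap there were 11 ZNF genes above the controls (4.28% of those tested, background 9.67%) and 18 below (7%, background 10.1%).

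**Figure D2:**
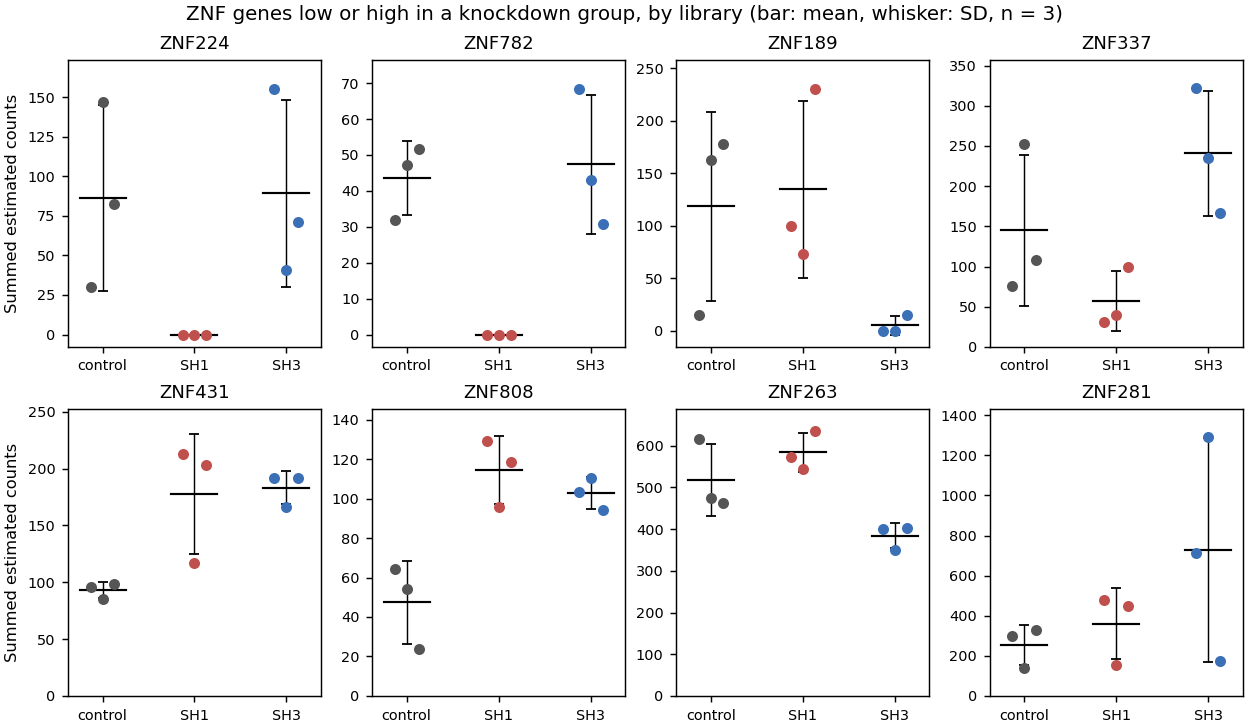
Summed estimated counts (vertical axis) of 8 ZNF genes in each control, SH1 and SH3 library (points), with the group mean (bar) and SD (whisker, n = 3). ZNF224 and ZNF782 are at 0 in the 3 SH1 libraries, ZNF189 is at 0 in SH3 1 and SH3 2, and the 6 knockdown libraries of ZNF431 and ZNF808 lie above their controls.

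In SH3 against control, 0 ZNF genes were called in either direction by edgeR, against a background of 0.406% of all genes. Before adjustment, 9 (3.5%) had a p under 0.05, against 8.39% of all genes, and DESeq2 called 1, ZNF263, as lower (background 4.03%). The median log2 fold change was -0.05, against -0.03 over all genes. It was 0.14 in the other 7 libraries and 0.13 without control 1. Over the family, the median deviation of control 1 from the mean of the controls was 0.22 on the log2 scale, against -0.02 in control 2 and 0.00 in control 3. ZNF263 had 616, 474 and 462 counts in controls, 573, 544 and 634 in SH1 and 400, 350 and 403 in SH3. Its SH3 libraries were below all 6 others (-0.52 ± 0.17, adjusted p = 0.404 in edgeR and 0.0374 in DESeq2).

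Further genes with small p in SH3 did not pass the threshold either. ZNF592, part of a nuclear zinc finger complex with ZNF532 and ZNF687, had 714, 552 and 1047 counts in controls and 621, 437 and 424 in SH3 (-0.74 ± 0.27, adjusted p = 0.492, edgeR). ZNF189, whose promoter is shown above, had 15.2, 162 and 178 counts in controls, 99.9, 73.3 and 231 in SH1 and 0, 0 and 15.1 in SH3 (-4.67 ± 1.76, adjusted p = 0.521). Control 1 was as low as SH3 3 in this gene, and the other 5 libraries of control and SH1 were higher. ZNF384 had 540, 694 and 768 counts in controls and 456, 464 and 559 in SH3 (-0.55 ± 0.23, adjusted p = 0.579), with overlap. On the higher side, ZNF32 had 77.4, 134 and 159 counts in controls and 173, 222 and 269 in SH3, without overlap (0.73 ± 0.37, adjusted p = 0.67). ZNF281, a GC-rich sequence binding factor linked to epithelial plasticity, had 298, 139 and 327 in controls and 712, 1292 and 176 in SH3 (1.42 ± 0.72, adjusted p = 0.67, edgeR). Its SH3 libraries ranged from within the controls to above them all. Without overlap, 12 ZNF genes lay above the controls (4.67%, background 8.69%) and 11 below (4.28%, background 8.58%).

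With SH1 and SH3 averaged against control, 0 ZNF genes were called by edgeR (background 1.11%), DESeq2 called 4 (ZNF431 and ZNF836 higher, ZNF224 and ZNF782 lower, background 5.63%), 7 had an unadjusted p under 0.05 (2.72%, against 10.2% of all genes), and the median was -0.04 against -0.07. SH1 and SH3 share the controls, so values of both are set side by side. In ZNF431 the SH3 counts were 192, 166 and 192, and the log2 fold changes were 0.75 in SH1, 0.87 in SH3 and 0.81 ± 0.28 on average (adjusted p = 0.34 in edgeR and 0.0351 in DESeq2). In ZNF808 the SH3 counts were 103, 111 and 94.3, with 1.11, 1.02 and 1.07 ± 0.41 (adjusted p = 0.417, edgeR). These were the 2 tested ZNF genes whose 6 knockdown libraries all lay above the 3 controls (0.778%, background 2.99%). Below all controls lay 4, ZNF77, ZNF585A, ZNF668 and ZNF70 (1.56%, background 3.33%). ZNF77 had 61, 68 and 54 counts in controls, 53, 32.6 and 60.7 in SH1 and 27.2, 43 and 19.7 in SH3 before scaling to library size (-0.81 ± 0.49, adjusted p = 0.683, edgeR). ZNF155 (0.48 ± 0.30), ZNF160 (0.54 ± 0.26), ZNF592 (-0.60 ± 0.23) and ZNF761 (-0.65 ± 0.30) had adjusted p from 0.408 to 0.698 in edgeR.

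SH3 was compared with SH1 directly. ZNF224 and ZNF782 were higher in SH3, at least 93.5-fold and 49.7-fold (adjusted p = 0.0423 and 0.0305, edgeR), and 0 ZNF genes were lower. The background was 1.36%, with 0.781% higher and 0.578% lower. These calls rest on the same 0 counts in SH1 as those against control, and were lost in the other 7 libraries (adjusted p = 0.0778 and 0.079, edgeR), where the background was 0.88%. They were also lost on leaving out any library but control 1 for ZNF224, and any library at all for ZNF782, where adjusted p without 1 library ran from 0.0504 to 0.125. Before adjustment, 10 ZNF genes (3.89%) had a p under 0.05, against 10.8% of all genes. DESeq2 called 5 (ZNF224, ZNF337 and ZNF782 as higher, ZNF189 and ZNF263 as lower, background 6.35%).

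Other ZNF genes with small p between the knockdown groups did not pass the threshold. ZNF337 had 31.1, 40.2 and 99.4 counts in SH1 and 322, 234 and 167 in SH3 (2.16 ± 0.65, adjusted p = 0.241 in edgeR and 0.0277 in DESeq2), with controls at 75.2, 252 and 109 overlapping both. ZNF512 had 43.3, 54 and 37.5 in SH1 and 179, 96.8 and 96.6 in SH3 (1.53 ± 0.52, adjusted p = 0.301). Neither overlapped between SH1 and SH3. Lower in value in SH3 were ZNF263 (-0.53 ± 0.17), ZNF189 (-4.64 ± 1.75), ZNF319 (-0.50 ± 0.24) and ZNF3 (-0.72 ± 0.35), with adjusted p of 0.249 to 0.55 in edgeR. ZNF3 had 385, 489 and 361 counts in SH1 and 291, 176 and 250 in SH3, without overlap. Without overlap, 16 ZNF genes lay above SH1 in SH3 (6.23%, background 11.3%) and 18 below (7%, background 10.7%).

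**Figure D3:**
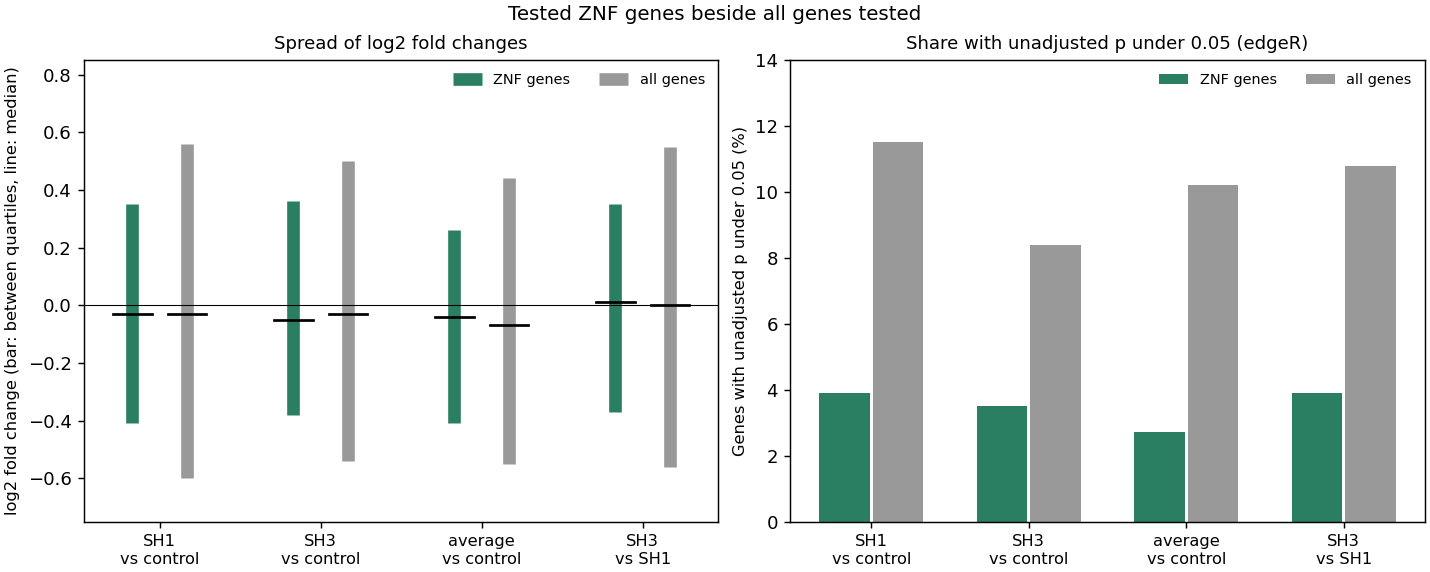
Tested ZNF genes (green, 257) beside all genes tested (grey, 6398) in 4 comparisons. Left, the range between the quartiles (bar) and the median (line) of the log2 fold changes; right, the percentage of genes with an unadjusted edgeR p under 0.05, which is 2.72% to 3.89% in ZNF genes and 8.39% to 11.5% in all genes.

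Listed transcripts of the same ZNF gene often went both ways. Between control 1 and SH1 1, the pair on which transcripts differ at least 2-fold by selection, 489 of the 935 were higher in SH1 1 and 446 lower (52.3% higher, against 52.4% of all transcripts). Transcripts of 183 genes went both ways, out of 199 ZNF genes with 2 or more listed. Those of 41 genes were all higher and of 37 all lower, among them 62 genes with a single listed transcript. The same shares over all genes were not counted, so no trait of the family is read from them. After summing, 38.7% of ZNF genes still differed at least 2-fold between control 1 and SH1 1, against 59.9% of all genes. In the other 35 pairs of libraries, pairs within a group included, it was 29.8% to 48.4%, against 36.9% to 52.9%. Of the transcripts, 116 were above 0 in all 9 libraries.

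ZNF266 had the most listed transcripts, 27, and sums of 298 to 472 counts. ZNF384 had 25 and ZNF185 had 18. In ZNF281 the transcript NM_001281294 had 3.13 FPKM in control 1, 3.85 in SH3 1 and 2.93 in SH3 2 and 0 in the other 6 libraries, whereas NM_012482 was above 0 in all 9, from 0.1 FPKM in control 1 to 10.7 in SH3 2. In ZNF431 the transcript NM_133473 had 0, 0.21 and 0.21 FPKM in controls, 0.64, 0.24 and 0.38 in SH1 and 0.33, 0.36 and 0.42 in SH3. The second one, NM_001319124, had 0.1 to 0.36 in controls, 0.15 to 0.35 in SH1 and 0.25 to 0.37 in SH3. The first alone was thus above all controls in the 6 knockdown libraries. Tested transcript by transcript, 0 of the 773 tested ZNF transcripts passed the threshold in any of the 4 comparisons (edgeR), against 0.131% of all transcripts in SH1, 0.0286% in SH3, 0.12% on average and 0.0972% in SH3 against SH1. Before adjustment, 25 ZNF transcripts were higher and 31 lower in SH1 with a p under 0.05 (7.24%, background 7.83%). In SH3 there were 23 higher and 14 lower (4.79%, background 5.87%), and on average 28 and 23 (6.6%, background 7.37%). In SH3 against SH1 there were 26 and 20 (5.95%, background 6.25%). These shares of ZNF transcripts were near those of all transcripts.

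**Figure D4:**
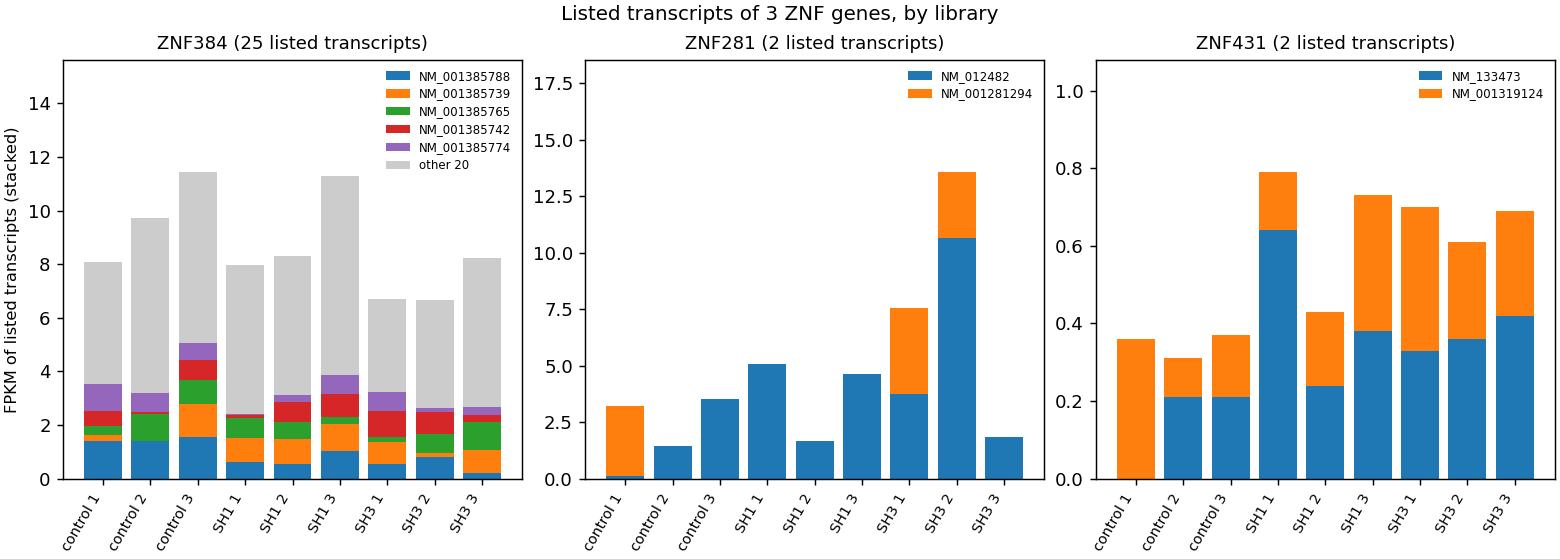
FPKM of the listed transcripts of ZNF384, ZNF281 and ZNF431 (vertical axis, stacked by transcript, the 5 most abundant in colour) in each of the 9 libraries. In ZNF384 the sums run from 6.66 to 11.4 FPKM, and NM_001281294 of ZNF281 appears in 3 libraries only.

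The deposited annotation gives 244 of the 261 as DNA binding, 232 as regulating transcription by RNA polymerase II, 50 as repressors and 38 as activators. It places 164 (62.8%) in the KEGG herpes simplex virus 1 infection pathway, where KEGG lists KRAB zinc finger proteins, and they make up 65.6% of the 250 genes of the table in that pathway. Of these 164, 163 were tested, with medians of 0.00 in SH1 and -0.02 in SH3. The 94 tested outside it had -0.09 and -0.14. Both genes called in SH1, ZNF224 and ZNF782, belong to the 164.

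Genes that lie side by side on the chromosome, in the order of RefSeq GRCh38.p14, were also compared. Of the 261, 114 belong to 22 runs of at least 5 consecutive ZNF genes and 90 have no ZNF gene as a neighbour. In the run from ZNF566 to ZNF793 on chromosome 19, 15 genes were tested, with median log2 fold changes of 0.09 in SH1 and 0.00 in SH3. The run from ZNF283 to ZNF180, which holds ZNF224 and ZNF155, had 12 tested and medians of -0.26 and 0.07. Around ZNF224 the other 11 tested genes of this run were not called in SH1 by edgeR, where the background was 2.14% of all genes. At this share, a lack of calls among 11 genes is not read as a trait of the run. The run from ZNF737 to ZNF681, with ZNF431, had 11 tested and medians of -0.17 and 0.15. The 104 tested genes on chromosome 19 had medians of 0.05 in SH1 and -0.01 in SH3. The 120 tested on other chromosomes of the promoter table had -0.07 and -0.08.

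Of the 28 genes with the motif ACTACANTTCCCA in a promoter, 28 were tested. ZNF224 and ZNF782 were the 2 called in SH1 (background 2.14%) and also the 2 with an unadjusted p under 0.05 there (background 11.5%), and 14 of the 28 had a positive value. All printed promoters, also those of ZNF189 and ZNF32, were chosen after the values of their genes were known. No link between the motif and the change was tested. The medians of the 28 were -0.01 in SH1, 0.06 in SH3 and 0.17 in SH3 against SH1, and 16 of 28 had a positive value in the last. ZNF143, whose known site the motif resembles, had 186, 35.1 and 67.4 counts in controls, 131, 131 and 127 in SH1 and 102, 288 and 84.1 in SH3. The groups overlapped and it was not called (log2 fold change 0.30 ± 0.67 in SH1 and 0.65 ± 0.67 in SH3).

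Members with roles other than repression on DNA were described by list. Of 11 ribosome and RNA genes 5 were listed and 0 called in the 4 comparisons by edgeR or DESeq2, with 1 at an unadjusted p under 0.05, in SH1 (background 11.5%). It was ZNF346, which binds double-stranded RNA and had 4.63 ± 0.674 FPKM in controls, 2.92 ± 1.32 in SH1 and 4.08 ± 0.225 in SH3 (-0.82 ± 0.35 in SH1, adjusted p = 0.427, edgeR). Of 14 activators and chromatin partners 10 were listed, 9 tested and 0 called by edgeR or DESeq2, with 1, ZNF592, at an unadjusted p under 0.05 in SH3 (background 8.39%). The partners ZNF592, ZNF532 and ZNF687 had 5.18 ± 1.81, 5.09 ± 1.28 and 2.73 ± 0.511 FPKM in controls and 3.23 ± 0.751, 4.11 ± 0.723 and 2.44 ± 0.671 in SH3. Of 9 retroelement repressors 3 were listed, with 0 called by either tool and 0 at an unadjusted p under 0.05. Over all genes, edgeR called 0.406% to 2.14% and DESeq2 4.03% to 7.19% in the 4 comparisons. An unadjusted p under 0.05 was found in 8.39% to 11.5% of them. Lists this short would mostly hold 0 calls at these shares, so no trait is read from them. ZNF91, which silences SVA elements, had 70.7, 114 and 122 counts in controls, 131, 104 and 12.5 in SH1 and 16.5, 80.3 and 0 in SH3 (adjusted p = 0.941 in SH3, edgeR). Its knockdown libraries spanned the range from 0 to above the controls.

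The machinery that KRAB proteins recruit was listed in part, with 9 of 18 genes, and edgeR called 0 in any of the 4 comparisons (background 0.406% to 2.14%). Before adjustment, 1 had a p under 0.05 in SH1, 2 in SH3 and 3 in SH3 against SH1, where the background was 11.5%, 8.39% and 10.8% of all genes. DESeq2 called 2 in the last comparison (background 6.35%). The 1 in SH1 was MPHOSPH8, a subunit of the HUSH silencing complex, with 1.98 ± 0.317 FPKM in controls, 3.65 ± 1.16 in SH1 and 2.65 ± 0.568 in SH3 (0.72 ± 0.30 in SH1, adjusted p = 0.413, edgeR). The median log2 fold change of the 9 was -0.12 in SH1 and -0.66 in SH3, against -0.03 over all genes in both. In SH3, 7 of 9 had a negative value, against 3285 of 6398 over all genes. No difference between this short list and all genes was tested. SETDB1, the methyltransferase of the complex, had 4.62 ± 2.42 FPKM in controls, 4.73 ± 2.42 in SH1 and 1.62 ± 0.713 in SH3 (-1.59 ± 0.62 in SH3, adjusted p = 0.539, edgeR). CHD3, a remodeller of the NuRD complex that KRAB complexes recruit, had 9.38 ± 4.04, 12.3 ± 1.37 and 5.45 ± 1.26 (-0.86 ± 0.31 in SH3, adjusted p = 0.492). DAXX, a chaperone of histone H3.3, had 19.3 ± 2.14, 23.8 ± 3.85 and 13.7 ± 4.48 (-0.66 ± 0.28 in SH3, adjusted p = 0.594, edgeR). SETDB1 and CHD3 were the 2 with an unadjusted p under 0.05 in SH3, and with DAXX the 3 in SH3 against SH1. In that direct comparison SETDB1 had -1.47 ± 0.62, CHD3 -1.10 ± 0.32 and DAXX -0.93 ± 0.29 (adjusted p = 0.447, 0.214 and 0.246, edgeR).

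Zinc finger genes under other names gave a comparison. Of 60 genes whose symbols start with ZBTB, ZSCAN, ZKSCAN, ZFP, ZFX, ZFY or ZIK, 55 were tested and 0 called in the 4 comparisons by edgeR (1 or 2 by DESeq2, 3 to 6 at an unadjusted p under 0.05), with medians of -0.07 in SH1 and -0.09 in SH3. The letters ZFY brought in 6 ZFYVE genes, whose proteins have a FYVE fold, and not ZFY itself, and ZBTB8OS is likewise no ZBTB factor. Of 26 ZC3H and ZDHHC genes, also zinc proteins of other folds, 26 were tested and 0 called by edgeR (1 or 2 by DESeq2, 1 or 2 at an unadjusted p under 0.05), with medians of -0.11 and -0.30. Of 5 KLF and GLI genes 4 were tested. GLI2, a C2H2 effector of hedgehog signalling, fell from 2.71 ± 0.396 FPKM in controls to 0.77 ± 0.197 in SH1 (-1.97 ± 0.28, adjusted p = 0.012, edgeR, background 2.14%). It was higher in SH3 than in SH1, at 2.04 ± 0.0436 FPKM (1.47 ± 0.28, adjusted p = 0.0494, edgeR, background 1.36%). Over all genes, edgeR called 0.406% to 2.14%, DESeq2 called 4.03% to 7.19% and 8.39% to 11.5% had an unadjusted p under 0.05 in the 4 comparisons. At the edgeR shares, 0 calls in lists of this size are not read as a trait of these families. No test of a difference between these lists and the ZNF genes was made.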

How the data were processed

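RNA-seq of Caki-1 cells was deposited for 9 libraries, 3 control, 3 SH1 and 3 SH3, grouped by their own titles. Per the file headers, each library has 4 columns. The deposited estimated count, an expected count from the authors' quantification, was summed per gene number, rounded and tested. The deposited FPKM was summed to give levels. The deposited TPM gave the share of each library that is listed, and the authors' normalized read count, a linear signal, was not used in tests. The submitters' processing notes name the mouse build mm10, whereas the gene numbers are human, so no coordinates of the table were used. The aligner and counter are not given in the sources used here.

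One edgeR 4.0.16 quasi-likelihood fit (R 4.3.3) with a mean per group took all 9 libraries and all genes, with TMM scaling, filterByExpr (minimum count 10), robust dispersions and a Benjamini-Hochberg threshold of 0.05. The SE is the log2 fold change over the square root of F. A group at 0 was set to 3 counts over the group, which covers counting error only. Promoter patterns were counted by script. Alternatives were DESeq2 1.42.0, limma 3.58.1 (trend on log2 of FPKM plus 1), other scaling, filters and features, fewer libraries and a replicate block. Scripts were tested on simulated data. Groups without overlap were counted on counts scaled to library size. Named genes were those called, the 8 most abundant, the 4 with the smallest p each way per comparison (mean of at least 30 counts), the 3 with most transcripts, and those without overlap or at 0 in a group; ZNF585A, ZNF668, ZNF70, ZNF836 and ZNF205, and the transcripts quoted, were chosen after their values were seen. Members and lists were chosen with earlier results of these data known. Protein domains were not analysed here.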

Additional observations from a re-analysis of the deposited data

Results flagged for a closer look

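The effects of SH1 and SH3 on ZNF782 and ZNF224 differed from each other in the direct test of SH3 against SH1 (adjusted p = 0.0305 and 0.0423, edgeR). Both genes had 0 counts in 3 of 3 SH1 libraries and counts above 0 in 3 of 3 SH3 libraries, each through 1 listed transcript.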

How the results depend on the processing

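The count of ZNF genes called in SH1 was 2. It was 3 with DESeq2 (ZNF836 added) and 0 with limma, with only the groups compared, with the replicate block, in the other 7 libraries and for deposited transcripts. In SH3 against SH1 the 2 calls became 5 with DESeq2, 1 with limma (ZNF205) and 0 under the same other settings. DESeq2 also called 1 gene in SH3 and 4 on average, where the main count was 0. Leaving out 1 library gave 0 to 2 calls in SH1, 0 in SH3, 0 on average, and 0 to 1 in SH3 against SH1. The family's median then ran from -0.09 to 0.13 in SH1, -0.10 to 0.13 in SH3 and -0.13 to 0.08 on average, and in the other 7 libraries it was 0.14 in SH3. The cause was not tested. Same-numbered libraries did not deviate together (correlations of -0.065 to 0.076). With few libraries a group and a table selected on control 1 and SH1 1, this cannot show whether the numbers pair libraries. Under the replicate block ZNF224 and ZNF782 had adjusted p of 0.173 and 0.155 in SH1 and 0.202 and 0.178 in SH3 against SH1 (edgeR). Of 621 recomputed values of 33 named fold changes, 566 kept their side of the threshold, 48 lost it, 7 gained it and 0 changed sign. Most of these fold changes were never past the threshold, and they were named for small p in the same libraries. Only ZNF224 and ZNF782 had calls to lose. These were lost in 12 and 11 of 19 settings in SH1, and in 12 and 13 of 19 in SH3 against SH1. The median SE was 0.71 in ZNF genes, 0.76 in all genes and 0.35 in the 101 ZNF genes with at least 100 counts. Of these 101, edgeR called 0 in the 4 comparisons, and 1.98% to 4.95% had an unadjusted p under 0.05. Among all 3190 tested genes with at least 100 counts, 11.9% to 16.8% had an unadjusted p under 0.05. Of those 3190, edgeR called 61 as higher and 64 as lower in SH1, and 19 and 7 in SH3. It called 36 and 29 on average, and 48 and 31 in SH3 against SH1.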
